A study of Mus musculus with 7 samples.

Results

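The unfolded protein response of the endoplasmic reticulum (ER) was examined through 31 genes, chosen by name. They cover the 3 stress sensors, the transcription factor XBP1, and the folding, degradation and transport machinery that the response controls. The genes and their role groups were chosen with earlier results of these data known. A probe set annotated to the gene was found for 29 of the 31, among 19505 named genes in all. Pdia4 and Manf, which encode a disulfide isomerase and a secreted ER chaperone, had no such probe set and were not analysed here. Every one of the 29 was measured by a single probe set.

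The RNA is labelled as coming from type 1 conventional dendritic cells (cDC1), the subset specialised in presenting captured antigen to CD8 T cells, sorted from spleen, and it was hybridised to whole-transcript Affymetrix arrays. The markers of the array labelled WT 2, and in part those of WT 1, go against that label, as given below. The KO group held 4 arrays, from mice with a floxed Opa1 gene and a Cre recombinase driven by CD11c, and the WT group held 3 arrays, from mice that the labels call WT without further genotype. All mice of both groups were of strain C57BL/6 and carried tumors of B16-OVA, a melanoma line that expresses ovalbumin. CD11c also drives Cre in CD11c-expressing cells other than cDC1. The labels give neither the age of the mice nor whether an array held 1 mouse or several. Every SD below is thus the spread between arrays, which may be in part technical. The SEs and intervals rest on that spread too, but limma (eBayes) drew each gene's variance toward a value shared by all genes. For a gene with little spread they can be wider than its own arrays would give. Hyou1, with SDs of 0.075 in KO and 0.026 in WT, had an SE of 0.090. OPA1 is a GTPase of mitochondria that fuses their inner membranes.

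The response starts when unfolded proteins accumulate in the ER. IRE1, encoded by Ern1, is a kinase and endonuclease that removes a short intron from the Xbp1 mRNA, so that the XBP1 transcription factor is made. ATF6 moves to the Golgi, is cut there, and enters the nucleus as a transcription factor. PERK, encoded by Eif2ak3, phosphorylates the translation factor eIF2 alpha, which lowers protein synthesis and favours translation of ATF4. In mouse cDC1 the IRE1 and XBP1 branch is known to be active without added stress. The array gives 1 level per gene, and that level does not separate spliced from unspliced Xbp1.

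The promoters of these genes are shown because the response acts on them. The ER stress response element (ERSE), bound by ATF6 and XBP1, was searched as CCAAT and CCACG with 9 bases between them. ERSE-II was searched as ATTGG and CCACG with 1 base between them, and the core of the unfolded protein response element (UPRE) as TGACGTGG. Both strands were read, over RefSeq windows of 250 bases before to 50 bases after each transcription start (GRCm38.p6). A window was found for 25 of the 29 measured genes, by symbol or gene identifier. ERSE letters stood in 9 of the 25 (36%), against 39 of all 32851 windows (0.119%). ERSE-II letters stood in 2, Herpud1 and Dnajb11, against 0.0365% of windows, and UPRE letters in 1, Sec24d, against 0.676%. In each pair the first share counts genes and the second counts windows, the members' own among them. The genes were chosen as machinery that this response controls, so a higher share was built into the choice. ERSE and ERSE-II share the letters CCACG, and no window of these 25 genes held both. The 5 stretches below are printed 5′ to 3′ on the gene's own strand, with the matched letters in capitals. Hspa5, Creld2 and Pdia6 represent chaperone genes whose values separated the arrays, Canx has the same element and did not separate them, and Herpud1 has the shorter element.
Hspa5: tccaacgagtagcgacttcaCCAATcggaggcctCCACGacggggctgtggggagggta
Creld2: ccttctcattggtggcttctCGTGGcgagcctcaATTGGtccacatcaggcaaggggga
Pdia6: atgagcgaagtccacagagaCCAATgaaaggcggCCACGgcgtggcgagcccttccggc
Canx: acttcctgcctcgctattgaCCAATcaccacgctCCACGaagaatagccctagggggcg
Herpud1: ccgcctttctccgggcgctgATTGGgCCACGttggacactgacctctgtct

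The Hspa5 stretch lies at chr2:34772005-34772063 on the plus strand, and its match begins 65 bases before the start. The Creld2 stretch (chr15:88819500-88819558, plus strand) holds the reverse complement of the element, beginning 126 bases before the start. The Pdia6 stretch is at chr12:17266471-17266529 (plus strand, 98 bases before), the Canx stretch at chr11:50325780-50325838 (minus strand, 145 bases before) and the Herpud1 stretch at chr8:94386357-94386407 (plus strand, 52 bases before). The other genes with ERSE letters were Hsp90b1, with 2 copies, Dnajc3, Calr, Syvn1 and Derl3. These matches are letters, not shown binding sites. The sources used here do not name the genome build of the array's probes.

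Values below are the deposited log2 expression values, and each difference is the KO mean less the WT mean, also in log2. Opa1 itself read 7.70, 7.10, 6.85 and 8.24 on KO 1 to 4 and 8.14, 8.80 and 9.15 on WT 1 to 3. Its difference was -1.22 (SE 0.36), the array labelled KO 4 lay above the array labelled WT 1, and it did not pass (limma, adjusted p = 0.223; exact two-sided permutation p = 0.114, where the smallest p possible is 0.0571). Whether the probes lie within the deleted part was not analysed here, so groups are named as labelled.

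The arrays labelled WT 1 and WT 2 stood apart from the other 5 in cell type markers, and this touches every comparison that follows. The mean of 13 melanocyte lineage genes was 7.26 to 7.97 on the KO arrays and 11.53, 11.89 and 9.01 on WT 1 to 3, with 13 of 13 genes lower in KO and 12 without overlap. The mean of 13 cDC1 markers was 11.95 to 12.03 on the KO arrays and 11.00, 9.48 and 11.90 on WT 1 to 3, with 13 of 13 genes higher in KO. Cd8a, a defining marker of splenic cDC1, was 11.95 to 12.12 on the KO arrays and 7.89, 6.96 and 12.11 on WT 1 to 3. Xcr1 and Clec9a, also defining markers of cDC1, were 12.70 to 12.79 and 12.03 to 12.11 on the KO arrays, 12.12 and 10.46 on WT 1, 7.97 and 7.29 on WT 2, and 12.76 and 12.10 on WT 3. The values of WT 2 thus go against the label of splenic cDC1, as do Cd8a, Clec9a, Itgax and Cadm1 on WT 1. Itgax and Cadm1 read 10.04 and 10.90 on WT 1, against 11.99 to 12.39 and 12.08 to 12.18 on the KO arrays. The melanocyte mean of WT 1, 11.53, was also close to the 11.89 of WT 2. Itgae, another marker of the list, read 11.45 on WT 1, within the 11.03 to 11.66 of the KO arrays. WT 1 and WT 2 were the 2 lowest arrays for 12 of the 13 markers. Whether these 2 arrays can serve as cDC1 replicates is uncertain. The same arrays differed in array-level signal: the median of the negative control probes was 6.49 to 6.88 on the KO arrays and 6.19, 6.26 and 6.71 on WT 1 to 3, and the median of the transcript probe sets was 8.05 to 8.08 on the KO arrays and 8.14, 8.14 and 8.05 on WT 1 to 3. The part of this signal difference in the comparisons was not tested. Array-wide, WT 1 and WT 2 correlated at 0.924 to 0.954 with the other 5 arrays across genes, and those 5 correlated among themselves at 0.988 to 0.993. In a bulk sample, fewer cells of a type and less RNA per cell cannot be told apart.

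None of the 29 genes passed the threshold of 0.05 after adjustment over all 19505 genes (limma with Benjamini-Hochberg adjustment), where 0% of all genes passed. The smallest adjusted p of a member was 0.226, for Creld2. At an unadjusted p under 0.05 there were 2 members higher in KO, Creld2 and Sdf2l1, and 0 lower, against 8.98% and 10.6% of all genes. Members with a lower mean in KO numbered 12 of 29, against 40.1% of all genes, and their median difference of 0.060 was close to the median of 0.059 over all genes. In 2 members, Hyou1 and Sdf2l1, the 4 KO values exceeded the 3 WT values without overlap (7.85% of all genes), and in 1, Atf6, they lay below without overlap (5.92%). The members' median difference varied with single arrays and with scaling, by less than 0.068. That yardstick is the pooled SD, within groups, of the members' median deviation on each array. It is not an SD of the difference itself. The members' median difference was 0.023 without WT 1 and 0.103 without WT 3, where all genes had medians of 0.059 and 0.068. After quantile normalization it was 0.105, where all genes had 0.058. With arrays centred on their medians it was 0.112, where all genes had 0.111.

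**Figure D1:**
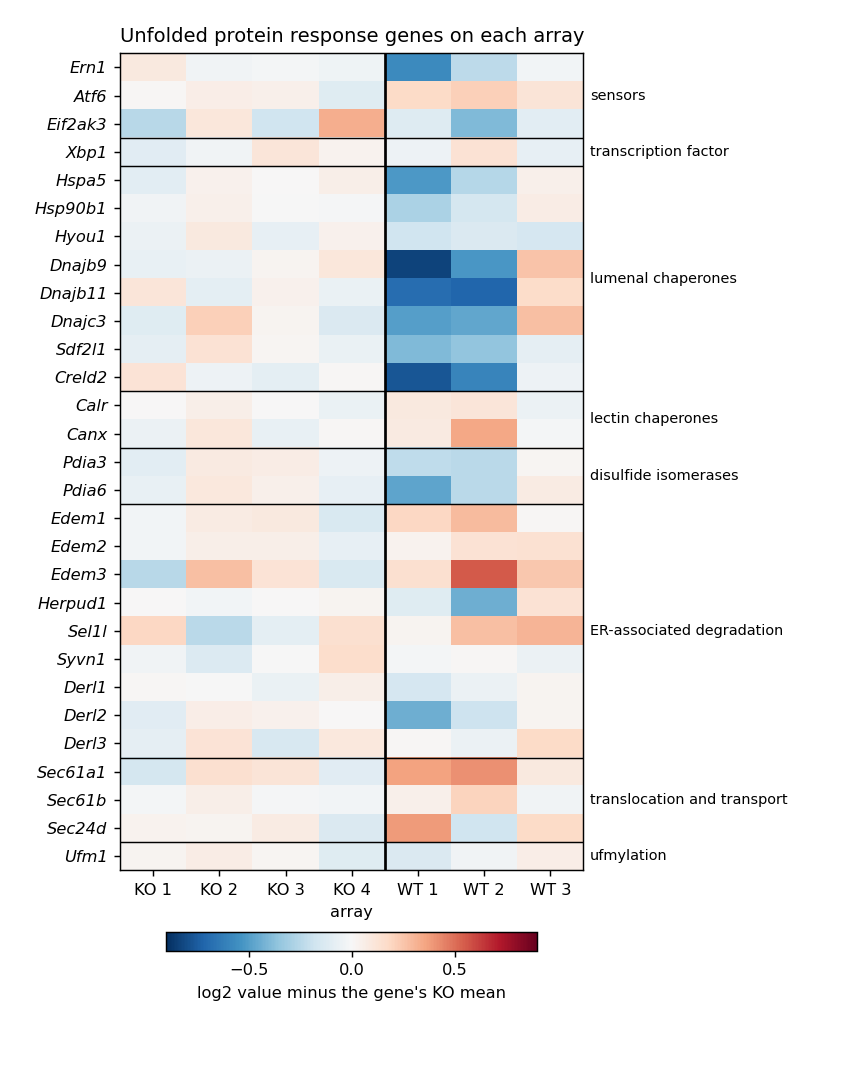
Each row is a measured gene of the unfolded protein response, grouped by role, and each column an array, with KO 1 to 4 on the left and WT 1 to 3 on the right. Colour is the log2 value minus the gene's mean over the KO arrays. In the rows of the lumenal chaperones, WT 1 and WT 2 are below the KO mean, and WT 3 is close to the KO arrays or above them, except for Hyou1, which is low on all 3 WT arrays.

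The clearest pattern was in the lumenal chaperones and their cofactors. All 8 measured genes of this group had a higher mean in KO, with differences of 0.13 to 0.47 and a median of 0.26, and 0 passed after adjustment. For 7 of the 8, every one except Hyou1, the arrays labelled WT 1 and WT 2 were the 2 lowest of the 7 arrays, and this held for 12 of all 29 members and for 22% of all genes. Relative to the KO mean, the mean of the group deviated by -0.52 on WT 1, by -0.40 on WT 2 and by 0.065 on WT 3. When the KO arrays were set against WT 3 alone, 5 of the 8 had a lower mean in KO.

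Hspa5 encodes BiP, the HSP70 chaperone of the ER that binds unfolded chains and also holds the sensors inactive. It read 12.55, 12.68, 12.64 and 12.70 on KO 1 to 4 and 12.13, 12.38 and 12.69 on WT 1 to 3. WT 3 lay among the KO arrays and the other WT arrays lay below them all. The difference was 0.24 (95% interval -0.08 to 0.57; limma, adjusted p = 0.342).

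Creld2, an ER protein induced by stress that acts on disulfide bonds, had the widest difference of the set. It read 11.41, 11.24, 11.20 and 11.30 on KO 1 to 4 and 10.52, 10.69 and 11.24 on WT 1 to 3. WT 3 again lay within the KO range, and WT 1 and WT 2 lay below it. KO exceeded WT by 0.47 (95% interval 0.07 to 0.87), or 1.38-fold, with an unadjusted p of 0.0266 that did not survive adjustment (limma, adjusted p = 0.226).

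Dnajb11 and Dnajb9 encode ERdj3 and ERdj4, J-domain cofactors that deliver substrates to BiP, and ERdj4 also represses IRE1. Dnajb11 read 10.03, 9.83, 9.96 and 9.86 on KO 1 to 4 and 9.23, 9.21 and 10.09 on WT 1 to 3. Dnajb9 read 11.11, 11.12, 11.20 and 11.28 on KO 1 to 4 and 10.35, 10.65 and 11.43 on WT 1 to 3. In both genes WT 3 was the highest of all 7 arrays and WT 1 and WT 2 were the lowest. The differences were 0.41 for Dnajb11 (95% interval -0.08 to 0.90; limma, adjusted p = 0.306) and 0.37 for Dnajb9 (-0.17 to 0.91; limma, adjusted p = 0.383). Dnajc3, another J-domain cofactor, better known as an inhibitor of PERK, followed the same order, with WT 1 at 10.18, WT 2 at 10.22 and WT 3 at 10.95, against 10.55 to 10.90 on the KO arrays.

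Sdf2l1, which keeps BiP and ERdj3 clients from aggregating, read 11.55, 11.76, 11.65 and 11.57 on KO 1 to 4 and 11.23, 11.27 and 11.54 on WT 1 to 3. The groups did not overlap, although WT 3 was nearly level with the lowest KO array. The difference was 0.28 (95% interval 0.02 to 0.54; limma, adjusted p = 0.245). Hyou1, the large HSP70-related chaperone that exchanges the nucleotide of BiP, read 11.07, 11.21, 11.05 and 11.15 on KO 1 to 4 and 10.94, 10.99 and 10.97 on WT 1 to 3. In Hyou1 alone of the 8, the 3 WT arrays lay together, and all were below the KO arrays. Its difference was 0.15 (95% interval -0.05 to 0.36; limma, adjusted p = 0.349), and it was also 0.15 against WT 3 alone. Hsp90b1, the ER form of HSP90, ranged from 12.75 to 12.82 on the KO arrays and from 12.49 to 12.84 on the WT arrays.

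**Figure D2:**
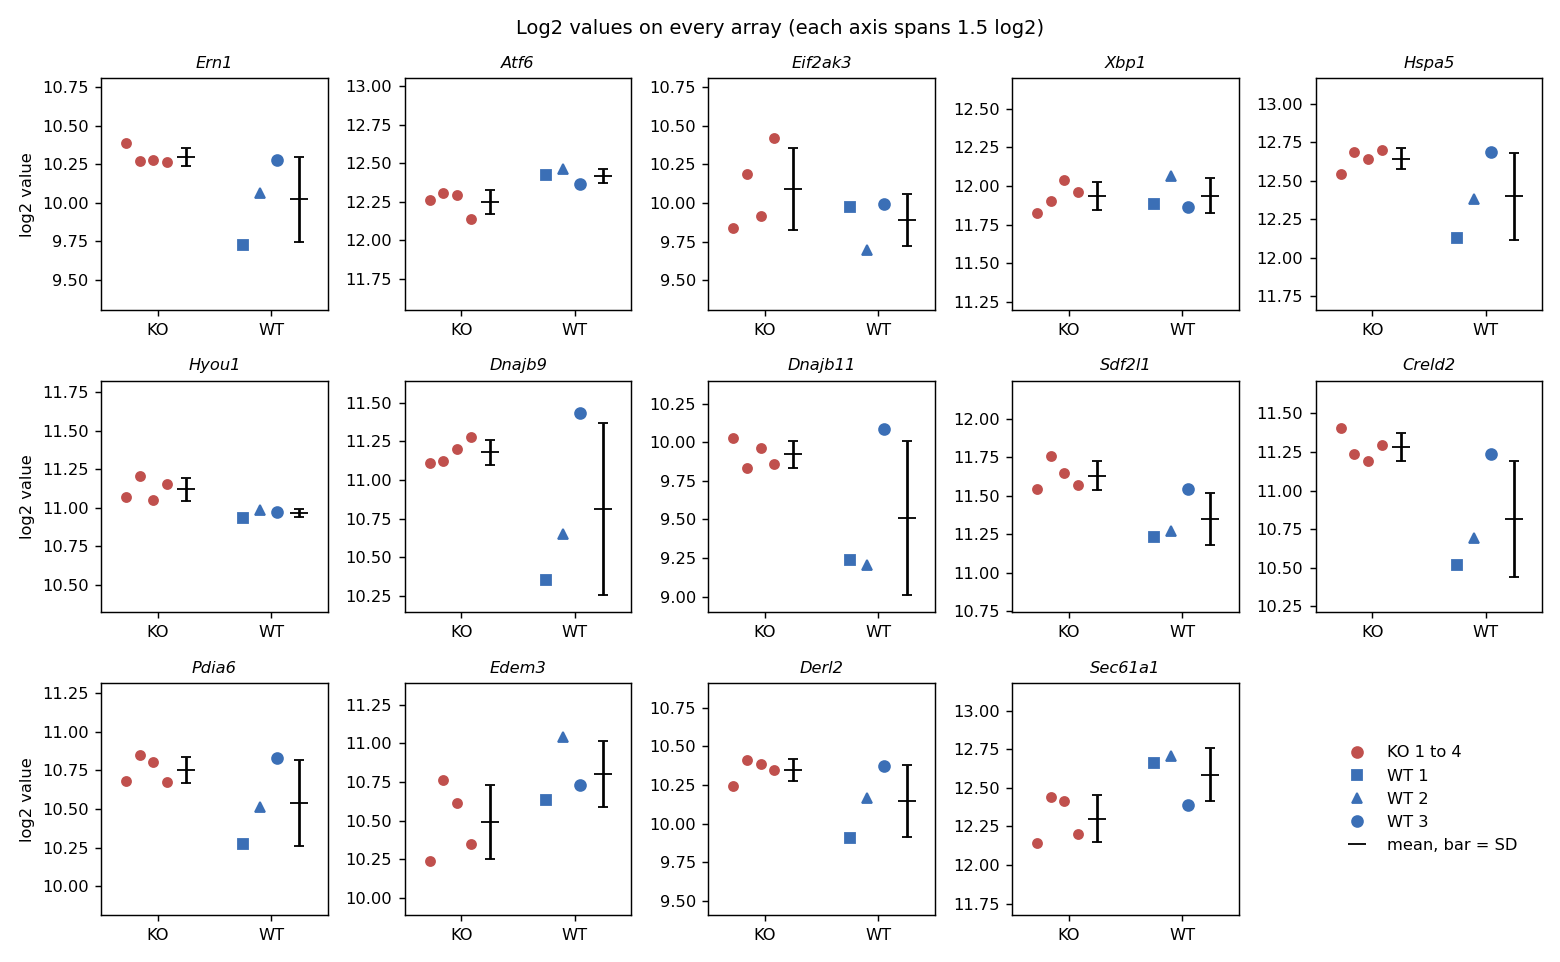
Log2 values of 14 members on every array, with KO (red) left of WT (blue), and the mean with its SD to the right of each group. WT 1 (square) and WT 2 (triangle) lie below the KO points for Hspa5, Dnajb9, Dnajb11, Creld2, Pdia6, Derl2 and Ern1, while WT 3 (circle) lies among or above them; Hyou1 and Atf6 separate the groups without such a gap between WT arrays.

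The fit was repeated leaving out each array in turn. Without WT 3, 7 members passed the adjusted threshold, all higher in KO: Dnajb11 (0.70, adjusted p = 0.00207), Creld2 (0.68, 0.00321), Dnajb9 (0.68, 0.00457), Dnajc3 (0.48, 0.0254), Sdf2l1 (0.38, 0.0384), Hspa5 (0.39, 0.0435) and Ern1 (0.405, 0.0452). All but Ern1 belong to the lumenal chaperones. In that fit 11.4% of all genes were called higher and 13.8% lower, and 0 members were called lower. The 7 calls rest on WT 1 and WT 2, the arrays with high melanocyte and low cDC1 markers, and the part of cell composition in them was not tested. Leaving out WT 1 alone lowered the difference to 0.11 for Hspa5, 0.135 for Dnajb9, 0.274 for Dnajb11, 0.13 for Ern1, 0.084 for Pdia6 and 0.079 for Derl2, and that of Dnajb11 was 0.26 without WT 2. Without WT 3, the differences of Pdia6 and Derl2 were 0.36 and 0.31, and neither passed. Without WT 1 and WT 2 together, 0 members passed, and the median difference of the 29 was -0.044, with 19 of 29 lower in KO, against a median of 0.023 over all genes.

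Plasma cells, which carry a large ER, are another cell type that sorted spleen cells could hold, and their markers were set beside the chaperones. Jchain, the joining chain of secreted antibodies, read 10.88, 10.05, 10.69 and 11.75 on KO 1 to 4 and 6.70, 6.96 and 11.87 on WT 1 to 3. Mzb1, an ER chaperone of antibody-secreting cells, read 5.84 to 7.55 on the KO arrays and 5.81, 5.70 and 7.66 on WT 1 to 3. Jchain was thus lowest on the same pair of WT arrays as the chaperones, an order that 22% of all genes had. The means of the B cell, plasmacytoid dendritic cell and neutrophil lists were also lowest on that pair. Those of the cDC2, T and NK cell, monocyte and macrophage, and fibroblast and endothelial lists were not. Mzb1 was below the negative control median on WT 1, WT 2 and KO 1, so its order there carries no information. The list as a whole was mixed, and 3 of 6 measured markers had a higher mean in KO. Its mean level was 7.47 to 8.22 on the KO arrays and 7.35 to 8.25 on the WT arrays. Sdc1 and Prdm1 were highest on WT 1 and WT 2. Tnfrsf17, the plasma cell receptor BCMA, stayed between 5.76 and 6.40 on all 7 arrays, where the medians of the negative control probes were 6.19 to 6.88. Among the KO arrays Jchain ranged from 10.05 to 11.75 and the mean of the lumenal chaperones from 11.38 to 11.45. The part of plasma cell RNA in the chaperone values was not tested.

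**Figure D3:**
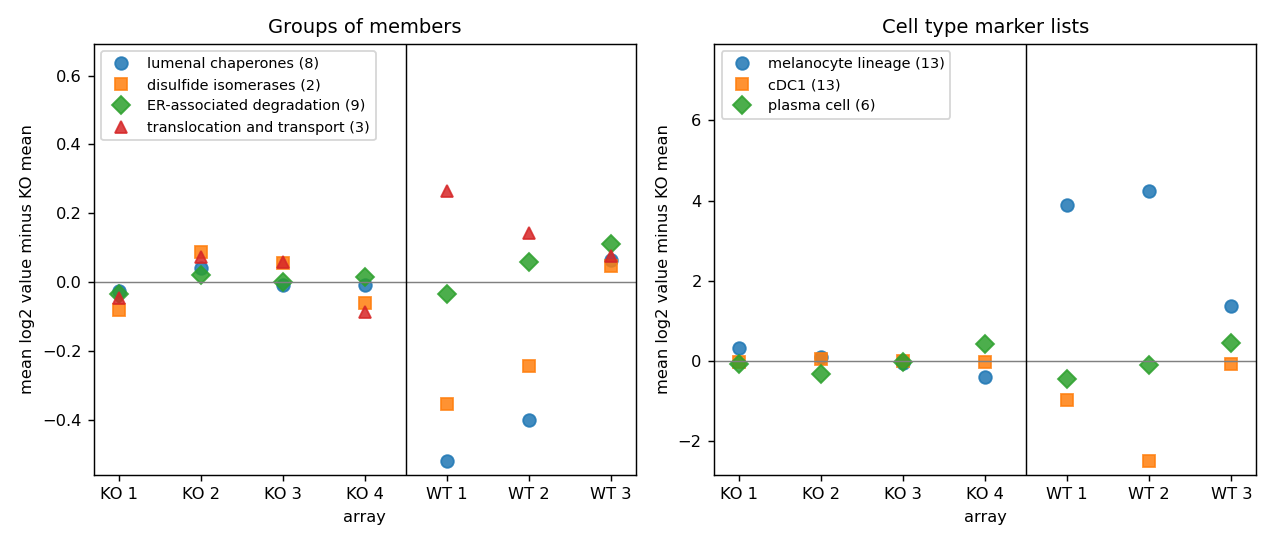
Mean log2 value of 4 groups of members (left) and of 3 marker lists (right) on each array, relative to the mean of the KO arrays; numbers in brackets are measured genes. Lumenal chaperones and disulfide isomerases are low on WT 1 and WT 2 and near the KO arrays on WT 3, the melanocyte list is high on all WT arrays, and the scales of the panels differ.

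The 2 measured disulfide isomerases had the array order of the chaperones. Pdia6 read 10.68, 10.85, 10.80 and 10.68 on KO 1 to 4 and 10.28, 10.51 and 10.83 on WT 1 to 3, with WT 3 inside the KO range. Its difference was 0.22 (95% interval -0.11 to 0.54; limma, adjusted p = 0.393). Pdia3, the isomerase that works with calnexin and calreticulin, was 11.46 to 11.63 on the KO arrays, and 11.32, 11.31 and 11.57 on WT 1 to 3. The lectin chaperones that Pdia3 works with did not share this pattern. Calr was 11.92 to 12.03 on the KO arrays and 11.93 to 12.08 on the WT arrays, and Canx was 11.57 to 11.74 on the KO arrays and 11.62 to 11.99 on the WT arrays. Both had a slightly lower mean in KO (-0.048 and -0.14).

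The 3 sensors differed from one another in the order of their arrays. Ern1 read 10.38, 10.27, 10.28 and 10.26 on KO 1 to 4 and 9.73, 10.06 and 10.28 on WT 1 to 3. WT 3 lay within the KO range, so the difference of 0.28 (95% interval -0.04 to 0.59; limma, adjusted p = 0.289) came from WT 1 and WT 2, and against WT 3 alone it was 0.022. Atf6 read 12.26, 12.31, 12.29 and 12.14 on KO 1 to 4 and 12.42, 12.46 and 12.37 on WT 1 to 3. It was the only member with every KO array below every WT array, by -0.17 (95% interval -0.38 to 0.04; limma, adjusted p = 0.326), and by -0.12 against WT 3 alone. Eif2ak3 read 9.84, 10.19, 9.91 and 10.42 on KO 1 to 4 and 9.97, 9.69 and 9.996 on WT 1 to 3. Here the KO arrays were the more variable (SD 0.27, n = 4, against 0.17, n = 3, in WT), the groups overlapped, and the difference was 0.20 (95% interval -0.18 to 0.58; limma, adjusted p = 0.48). It was 0.093 without KO 4 and 0.106 without WT 2.

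Xbp1 was the most even of the members between groups. It read 11.83, 11.90, 12.04 and 11.96 on KO 1 to 4 and 11.89, 12.07 and 11.86 on WT 1 to 3. The groups overlapped fully, and the difference was -0.005 with a 95% interval of -0.24 to 0.23, its sign depending on the scaling (0.046 with arrays centred on their medians, 0.020 after quantile normalization). A difference in total Xbp1 mRNA of more than about 0.24 log2 lay outside the interval. That interval rests in part on WT 1 and WT 2, so it sets no bound for cDC1 alone. Against WT 3 alone the difference was 0.071. The splicing of Xbp1 was not measured.

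The machinery of ER-associated degradation, which extracts misfolded proteins for the proteasome, was mixed. Of its 9 genes 4 had a higher and 5 a lower mean in KO, with a median of -0.042 and 0 past adjustment. Against WT 3 alone, 8 of the 9 had a lower mean in KO, with a median of -0.13. In that comparison 8709 of all 19505 genes were lower, and the median over all genes was 0.023. Derl2, a derlin of the extraction channel, read 10.24, 10.41, 10.39 and 10.35 on KO 1 to 4 and 9.91, 10.16 and 10.37 on WT 1 to 3. As with the chaperones, WT 1 and WT 2 were lowest, and the difference was 0.20 (95% interval -0.09 to 0.49; limma, adjusted p = 0.382). Edem3, a mannosidase that trims glycans of misfolded proteins, had a lower mean in KO. It read 10.24, 10.76, 10.61 and 10.35 on KO 1 to 4 and 10.63, 11.04 and 10.73 on WT 1 to 3, a difference of -0.31 (95% interval -0.68 to 0.06; limma, adjusted p = 0.306). Its groups overlapped, since KO 2 lay above WT 1 and WT 3, and the difference was -0.19 without WT 2.

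All 3 EDEM genes had a lower mean in KO, Edem1 by -0.16 and Edem2 by -0.10. Herpud1, a scaffold of the ligase complex, was steady on the KO arrays, at 12.47 to 12.52, and spread from 12.06 to 12.63 on the WT arrays. Sel1l, the adaptor of the ligase HRD1, was 8.40 to 8.83 on the KO arrays and 8.67 to 8.95 on the WT arrays. Syvn1, which encodes HRD1 itself, differed by 0.020, Derl1 by 0.060 and Derl3 by -0.042, in each case with overlapping groups.

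The genes of translocation and transport all had a lower mean in KO. Sec61a1, the pore of the translocon through which new chains enter the ER, read 12.14, 12.44, 12.41 and 12.20 on KO 1 to 4 and 12.66, 12.71 and 12.39 on WT 1 to 3. WT 1 and WT 2 were the highest arrays and WT 3 lay within the KO range, the reverse of the chaperones. The difference was -0.29 (95% interval -0.58 to 0.01; limma, adjusted p = 0.262). In 4 members, Sec61a1, Atf6, Calr and Edem1, the arrays labelled WT 1 and WT 2 were the 2 highest, against 19.4% of all genes. Sec61b, a small translocon subunit, and Sec24d, a cargo adaptor of the COPII coat, differed by -0.071 and -0.12. Ufm1, the ubiquitin-like protein attached to ribosomes at the ER, was even between groups, with a difference of 0.036.

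**Figure D4:**
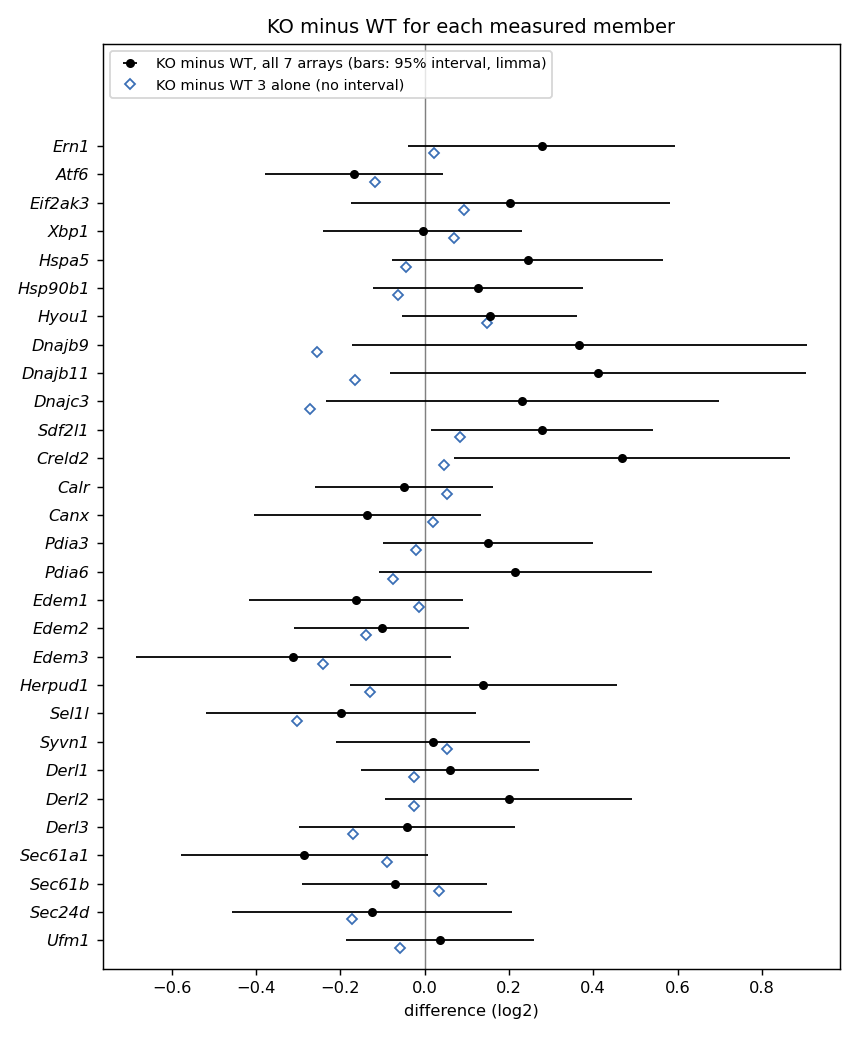
KO minus WT of each of the 29 measured members in log2 units, with filled points for all 7 arrays and bars for the 95% interval from limma, and open diamonds for the KO mean minus WT 3 alone. Only the bars of Sdf2l1 and Creld2 stay clear of 0, and for 7 of the 8 lumenal chaperones the diamond lies clearly to the left of the point; Hyou1 and Atf6 have both marks on the same side of 0 and close together.

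Read by branch, the 13 genes usually placed under IRE1 and XBP1 had a median difference of -0.005, with 7 lower and 6 higher in KO. The 13 measured genes usually placed under ATF6 had a median of 0.14, with 4 lower and 9 higher. Many of these genes respond to both factors, and no test between the branches was made. ERSE letters were set beside the array order without a test. WT 1 and WT 2 were the 2 lowest arrays for 5 of 9 genes with the element and for 7 of 16 without it in their window. Creld2, Hspa5 and Pdia6, printed above, were among the 5, whereas Canx and Calr carried the same letters and were not. The 16 include Dnajb11 and Herpud1, which hold ERSE-II letters and had WT 1 and WT 2 lowest. They also include Sec24d, which holds UPRE letters and did not. These groups are too small to tell whether the element matters.

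The KO arrays differed little among themselves. The median SD of the 29 members was 0.085 over the KO arrays (n = 4) and 0.17 over the WT arrays (n = 3), against 0.14 and 0.20 for all genes. The WT spread was the larger in 21 of the 29 members (72.4%) and in 66.7% of all genes. KO 2 was the highest of the KO arrays for 16 members, and KO 1 and KO 4 were the lowest for 10 each. WT 3 fell within the KO range for 16 members, above it for 10 and below it for 3, where 57.7%, 18.1% and 24.2% of all genes did. WT 1 fell below the KO range for 15 members and WT 2 also for 15, against 33.6% and 42.1% of all genes.

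Other genes of the ER were followed in 9 lists with 105 genes, of which 99 were measured, and 0 passed after adjustment, as for all genes. Of the 99, 48 had a lower and 51 a higher mean in KO, with a median difference of 0.0097, and 14 were lower and 10 higher at an unadjusted p under 0.05, where 10.6% and 8.98% of all genes were. Groups did not overlap for 3 genes higher and 10 lower in KO, where this held for 7.85% and 5.92% of all genes. Without WT 3, limma called 21 higher and 17 lower, where it called 11.4% and 13.8% of all genes.

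Downstream of PERK, 7 of 9 genes had a lower mean in KO, with a median of -0.094. Ddit3, which encodes the stress-induced factor CHOP, read 10.24, 10.11, 10.20 and 10.63 on KO 1 to 4 and 11.38, 11.80 and 10.48 on WT 1 to 3. KO 4 lay above WT 3, and WT 1 and WT 2 were the highest arrays, with a difference of -0.93 (limma, adjusted p = 0.223). Atf4 itself ranged from 12.29 to 12.45 on the KO arrays and from 12.39 to 12.57 on the WT arrays. Ppp1r15b, a constitutive subunit of the eIF2 alpha phosphatase, was 10.55 to 10.62 on the KO arrays and 10.13 to 10.45 on the WT arrays, without overlap. On WT 1 and WT 2 the chaperones were thus low while Ddit3 was high.

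Oxidative folding split within its list. Ero1a, the oxidase that recharges the disulfide isomerases and is also induced by hypoxia, was 9.42 to 9.75 on the KO arrays and 10.55, 11.67 and 9.96 on WT 1 to 3, and all KO values lay below all WT values (difference -1.13; limma, adjusted p = 0.223). Erp29, an isomerase-like chaperone, was 8.93 to 9.01 on the KO arrays and 8.66, 8.49 and 8.77 on WT 1 to 3, all KO values being above (difference 0.33; limma, adjusted p = 0.223). In the list headed HSP70 cofactors of the ER, 6 of 7 genes had a higher mean in KO. Whether each of them acts with BiP was not examined. Sec63, a J-domain partner of the translocon, read 11.19 to 11.29 on the KO arrays and 10.46, 10.85 and 11.25 on WT 1 to 3. That was the same order as the chaperones. Dnajb14, of the same list, differed by 0.39.

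In the COPII list, Preb, the exchange factor that starts coat assembly, showed the order of the chaperones, at 12.17 to 12.43 on the KO arrays and 11.23, 11.34 and 12.23 on WT 1 to 3. Sar1a, the GTPase that Preb activates, was 11.01 to 11.09 on the KO arrays and 11.22 to 11.48 on the WT arrays, without overlap (difference -0.31; limma, adjusted p = 0.223). Of the remaining genes named, Rtcb, the ligase that joins the Xbp1 exons, differed by 0.44, and Tmbim6, an ER membrane protein that restrains IRE1, by -0.28. Sec11a of the signal peptidase differed by 0.34 and Ssr3 of the translocon-associated complex by -0.39. Ufl1 and Ddrgk1 of the UFM1 ligase differed by 0.36 and -0.32, and only Ddrgk1 of this pair was without overlap. Nploc4, a cofactor of the extraction ATPase, and Prkcsh, a glucosidase subunit, differed by -0.36 and -0.30, both without overlap. Fam8a1 (-0.86) and Uggt2 (-1.57) were also lower without overlap, but Uggt2 read 4.50 to 4.82 on the KO arrays, below the negative control medians, and Fam8a1 6.23 to 7.15, close to them.

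**Figure D5:**
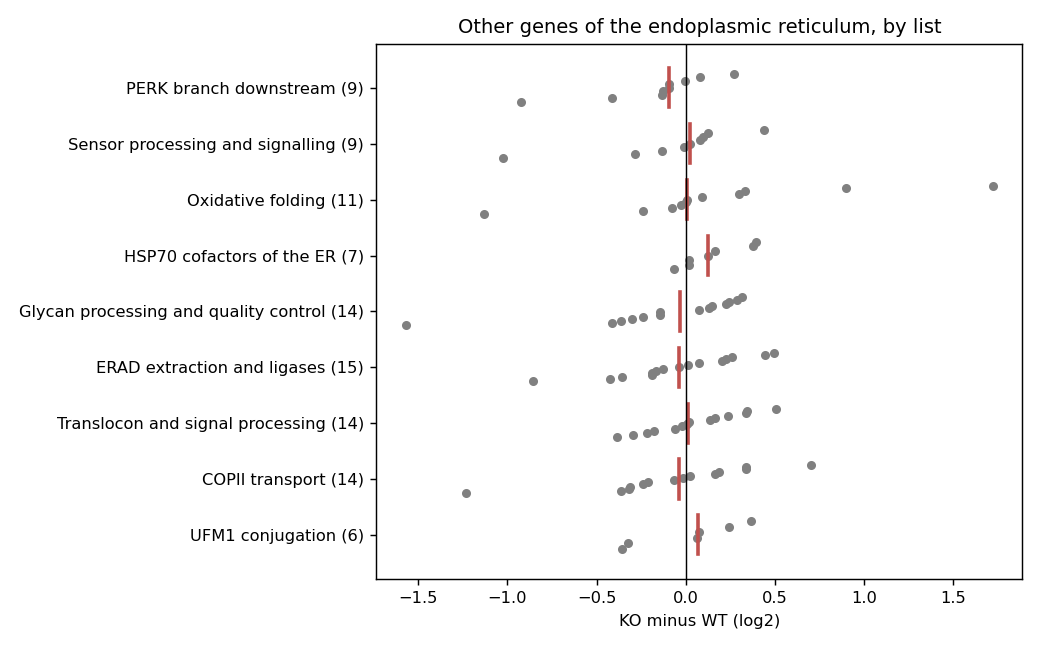
KO minus WT in log2 units for the measured genes of 9 lists of ER genes outside the 29 members, one grey point per gene and a red line at each list's median; numbers in brackets are measured genes. The medians lie between -0.094 and 0.12, and genes fall on both sides of 0 in every list.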

How the data were processed

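Expression was measured on 4 KO and 3 WT whole-transcript arrays, all labelled as sorted splenic cDC1. The authors deposited 1 table of log2 values, 28846 rows by 7 arrays, which the submitters' processing notes credit to RMA in Affymetrix Expression Console 1.1. RMA corrects background, quantile normalizes and summarises probes, which compresses dim signals. The scale was read from the values, 0 columns were left unmapped, and the number of arrays limits precision.

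Of 22206 transcript probe sets, 19572 carried 1 gene symbol in the platform annotation, and all 19572 matched RefSeq by gene identifier. The other 2634 listed no gene. The probe set with the highest mean was kept per symbol, leaving 19505 genes. Symbols of 5 listed genes were updated through RefSeq.

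KO was compared with WT across all genes with limma 3.58.1 in R 4.3.3 (lmFit, eBayes, no covariate) with Benjamini-Hochberg adjustment and a threshold of 0.05. Fits were tested on simulated data. Members, role groups, branches and lists were chosen with earlier results of these data known. Named members were the sensors, Xbp1, Hspa5, members past the threshold or without overlap, and then those of smallest p up to 14; each ER list gave its 2 genes of smallest p. Genes named beyond these, such as Dnajc3, Calr, Canx, Atf4 and the plasma cell markers, were chosen after their values were seen or to account for every member. Marker lists of 11 cell types were averaged; means not given in the report stand in the closing section. Alternatives were leaving out each array, a replicate block, 2 scalings, a filter on dim genes, another variance model and another probe set rule. Leaving out WT 1 and WT 2 together was added after seeing the data.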

Additional observations from a re-analysis of the deposited data

Results flagged for a closer look

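One value among the members stood apart from the rest of its group. Ern1 read 10.38 on KO 1 and 10.26 to 10.28 on the other KO arrays, and the gap made up 0.867 of the group's range which is above Dixon's 95% critical value for 4 samples. Of 31 sets of KO values examined in this way (29 members, their mean and Opa1), 1 was marked, where chance marks about 1 in 20. The WT group, with 3 arrays, was too small to be examined.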

How the results depend on the processing

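The 29 members were present in all 14 other settings, and the choice of probe set did not touch them. Without WT 3, 4931 genes and 7 members passed adjustment, against 0 and 0 with all arrays; in the other 13 settings both counts were 0. Members lower in KO at an unadjusted p under 0.05 numbered 0 with all arrays, 0 to 2 when single arrays were left out (2 without KO 2, 1 without WT 3), and 1 with trended and robust variance. Members with a lower mean in KO were 19 without WT 1 and WT 2, where the median difference was -0.044; leaving out single arrays gave 11 to 13 members and medians of 0.023 to 0.103. The sign of Xbp1 turned when single arrays were left out, between -0.043 and 0.059 (0.030 without KO 1, 0.006 without KO 2, 0.059 without WT 2), with median centring (0.046), with quantile normalization (0.020) and without WT 1 and WT 2 (0.071). That last setting, which holds 1 WT array assumed to vary like the KO arrays, also turned Hspa5 (-0.044), Dnajb11 (-0.17), Derl2 (-0.026), Dnajb9 (-0.26) and Pdia6 (-0.074); the cause was not tested. The other 8 named members kept their direction in all 14 settings. Opa1 kept its direction where it was tested, and the filter on dim genes removed it. With the replicate block the median difference of the members was 0.072 and 0 members passed. No WT array shares the number of KO 4, so the differences in that setting were the same as without KO 4. The labels tie no numbers to shared mice or days, and deviations of same-numbered arrays correlated at -0.038, 0.046 and -0.017 across genes, so the numbers were not taken as pairs.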

Other observations

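Of the other marker lists, averaged per array, B cell genes stood at 7.73 to 8.14 on the KO arrays and at 7.56, 7.50 and 8.13 on WT 1 to 3. Plasmacytoid dendritic cell genes stood at 9.67 to 9.83 on the KO arrays and at 9.15, 9.26 and 10.14 on WT 1 to 3, and T and NK cell genes at 7.35 to 8.71 and at 7.22, 7.48 and 8.74. Neutrophil genes were 6.86 to 8.04 on the KO arrays and 6.49, 6.67 and 7.65 on WT 1 to 3, and Alas2, the 1 measured erythroid gene of 6, was 8.35 to 8.93 and 7.89, 7.96 and 8.55. Genes of cDC2 were 8.05 to 8.47 on the KO arrays and 8.15, 10.14 and 8.56 on WT 1 to 3, and those of monocytes and macrophages 8.67 to 9.14 and 9.16, 10.35 and 9.45. Fibroblast and endothelial genes were 7.98 to 8.32 on the KO arrays and 7.90, 8.12 and 8.11 on WT 1 to 3.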
